A study of Mus musculus with 6 samples.

Results

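The change in uterine gene expression between 12 h and 24 h after a single estradiol injection was read from a pair of microarrays out of the 6 in the series, chosen by the time in their titles. The mice were C57Bl/6 females, aged 10 to 11 weeks per their age label, whose ovaries had been removed 7 days before they were killed. The growth protocol instead states receipt at 10 weeks of age and 3 weeks of acclimation, which does not match that label. In the 24 h group and in the 12 h group, 0.05 µg of estradiol per mouse was given under the skin 24 h or 12 h before death. Other arrays set beside these were taken 6 h after the same dose and 24 h after vehicle, in ovariectomised mice of the same strain and age. Uteri of a group were pooled into 1 RNA, the labels state 10 mice without saying whether per group or in all, and each group has 1 array. A difference between 2 groups therefore compares 2 pools, no spread between replicates can be given, and nothing was tested. No source used here gives the time of day at which mice were injected or killed, so time after estradiol cannot be told apart from it.

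Estradiol, the main ovarian estrogen, makes the regressed uterus of an ovariectomised mouse grow through the estrogen receptor Esr1. As background, cells first take up water and build ribosomes, protein and lipid, and epithelial cells then copy their DNA and divide. In the vagina of rodents the same hormone makes the epithelium stratify and cornify, a program in which keratins change and small proteins are crosslinked into a tough envelope under the cell membrane. The comparison of 24 h with 12 h asks which of these programs was ending and which was starting.

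Affymetrix arrays read a gene with 1 or more probe sets, and the deposited value is a signal, a brightness on a linear scale. A signal under 143 lay among the dimmest 40% of all values and is called below the floor. For a ratio such a value was raised to the floor, so a fold against it is a lower bound. Of 8251 named genes, 5987 reached the floor on at least 1 array of the pair and are called measured, and 2264 did not. The median log2 ratio of 24 h over 12 h was 0.01 over the measured genes, and 4660 of them (77.8%) differed by less than 1.5-fold. At least 2-fold higher at 24 h were 189 genes, which is 3.16% of those measured, and at least 2-fold lower were 162, which is 2.71%. These shares are the background for every count of list members below. The lower side was the shallower one: a 4-fold step up was seen for 23 genes, and only Inhbb, Ifrd1 and Abcf2 were at least 4-fold lower. Raising the floor to the 60th percentile left 94 genes higher and 91 lower, and lowering it to the 20th gave 395 and 296.

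The 24 h and 12 h arrays ranked the probe sets alike (Spearman 0.957). On every array 58.8% to 61.7% of probe sets reached the floor. The 3' to 5' signal ratio of actin, a sign of RNA integrity, was 1.16 at 24 h and 1.20 at 12 h. The array labelled 3 h stood apart from the other 5 (Spearman 0.843 to 0.857, against 0.929 to 0.968 among the others) and entered no ratio here. For 57 genes past 2-fold a second probe set was measured, and it moved at least 1.5-fold the same way in 28 of them (49.1%, Wilson 95% interval 36.6% to 61.7%, covering counting error only) and the opposite way in 1. Agreement between probe sets is technical, within the same arrays, and where it fails for a gene past 2-fold that is named here its second value is given. Clca1, Krt10, Flg, Crct1 and Abcf2 each rest on 1 of 2 probe sets, since the other was below the floor at both times.

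Among the largest differences toward 24 h were those of genes of cornifying epithelium. Of 43 measured genes on a list of cornified envelope proteins, keratins of stratified epithelia and their desmosomes, 19 were at least 2-fold higher at 24 h, none was 2-fold lower, and the median log2 ratio was 0.67, against 3.16% and 0.01 over all measured genes. Sprr3, a small proline-rich protein that is crosslinked into the envelope, had a signal of 2463 at 24 h and 49.3, below the floor, at 12 h, at least 17.2-fold higher. It was below the floor on the vehicle, 6 h and 12 h arrays alike. Sprr1a, of the same family, read 18349.8 at 24 h and 3522 at 12 h, and Sprr1b read 27112 at 24 h and 5044 at 12 h. Both were more than 5-fold higher at 24 h, and the second probe set of Sprr1b showed a larger log2 ratio still, 5.11 against 2.43. The pseudogene Sprr2c-ps had 1944 at 24 h and 234 at 12 h. Other Sprr2 genes did not all share that step: Sprr2d read 1772 at 24 h and 472 at 12 h, whereas Sprr2f, an early estrogen-responsive gene of the uterus, read 8078 at 24 h and 6836 at 12 h. Sprr2f and Sprr2e (5053 at 24 h and 5763 at 12 h) differed by less than 1.5-fold. Sprr2 genes and the Krt6 pair are close in sequence, and their probe sets cannot be assumed to tell the members apart.

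Keratins form the intermediate filaments of epithelia, and Krt1 with Krt10 is the pair of the suprabasal layers of skin. Krt1 had 1361 at 24 h and 161 at 12 h, 8.45-fold higher. Krt10 had 3484 at 24 h and 633 at 12 h, 5.5-fold higher. With vehicle Krt1 read 208 and Krt10 230.3, so most of their distance from vehicle at 24 h lay within this interval. Krt17, a keratin of stressed and fast-renewing epithelium, read 4942 at 24 h and 921 at 12 h, 5.36-fold higher, with 2.09 on the log2 scale in its second probe set. Krt16 took an earlier course, with 20.0 on the vehicle array, 123 at 6 h, 2688 at 12 h and 11144 at 24 h. Krt6a was already at 16388 at 6 h, against 757 with vehicle, and its step in this interval, 31509.5 at 24 h against 19830.3 at 12 h, stayed under 2-fold, with a log2 ratio of 1.11 in its second probe set.

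Genes of the last steps of the program were among the 15 highest. Flg, filaggrin, which bundles keratin filaments in the outermost skin layers, read 1286 at 24 h and 163 at 12 h, 7.91-fold higher. Cdsn, corneodesmosin, which holds cornified cells together, had 1431 at 24 h and 314 at 12 h, and Krtdap, a secreted protein of differentiating keratinocytes, had 2577 at 24 h and 503 at 12 h. Cdsn was lower at 12 h than with vehicle (594), whereas Krtdap was higher than with vehicle (105). Crct1, a gene of the epidermal differentiation complex, was at 716 at 24 h and at 34.0, below the floor, at 12 h. Krtdap and Crct1 are not on the list, nor are the next 2 genes. Arg1, arginase, which splits arginine into ornithine and urea, had 1559.8 at 24 h and 104, below the floor, at 12 h, at least 10.9-fold higher. Ly6g6c, of the Ly6 family of surface proteins, had 1495 at 24 h and 113 at 12 h, again below the floor at 12 h.

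Other genes of the program were not 2-fold higher. Loricrin (Lor), a main envelope protein of skin, read 715 at 24 h and 494 at 12 h, under 1.5-fold apart, and involucrin (Ivl) lay below the floor on both arrays. The keratins of the basal layer were below the floor at both times as well: Krt5 had 89.4 at 24 h and 20.4 at 12 h, and Krt14 had 85.3 at 24 h and 68.3 at 12 h. Krt15 was also below the floor, while Trp63, a transcription factor of basal cells of stratified epithelia, read 472 at 24 h and 409.6 at 12 h. In all, 8 of the 51 list genes on the array were below the floor at both times. The labels name whole uterus with adhering tissue removed, and no source used here says whether cervix or vagina was included. The part of such tissue in these values was not tested.

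**Figure D1:**
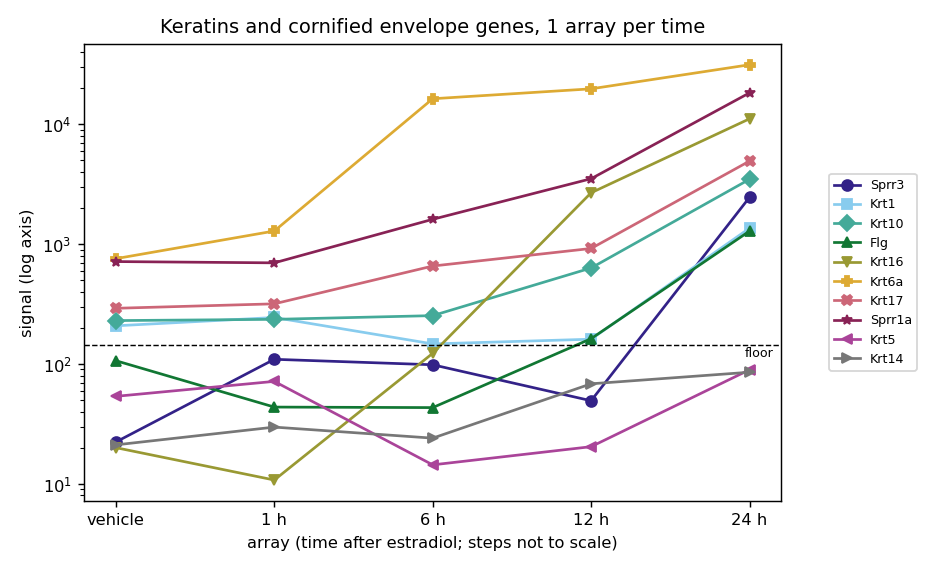
Signal (log axis) of 10 keratin and cornified envelope genes on the vehicle, 1 h, 6 h, 12 h and 24 h arrays, 1 array per time, with the floor as a dashed line. Sprr3, Flg and Krt1 lie near or under the floor until 12 h and at 1286 or more at 24 h, Krt6a is high from 6 h on, and Krt5 and Krt14 stay below the floor. Heights of different genes are not comparable, since each has its own probes.

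Luminal secretory and surface products of the uterus were read as a list of 26 measured genes, of which 3 were at least 2-fold higher (against 3.16% in the background), none was 2-fold lower, and the median log2 ratio was 0.64. Clca1, a secreted regulator of calcium-activated chloride channels, read 1087 with vehicle, 314 at 6 h, 551 at 12 h and 8092 at 24 h. It was below its vehicle signal until 12 h and 14.7-fold higher at 24 h than at 12 h. Psca, a lipid-anchored surface protein of epithelia, had 3891 at 24 h and 946 at 12 h. Gjb2, connexin 26, which forms gap junctions between epithelial cells, had 8338 at 24 h and 2544 at 12 h, 3.28-fold higher. Muc1, the mucin that coats the luminal surface, had 3625 at 24 h and 1915 at 12 h, and Lcn2, which binds bacterial iron carriers, had 2438 at 24 h and 1285 at 12 h. Both were just under 2-fold, and the second probe set of Lcn2 had a log2 ratio of -0.06. Cp, ceruloplasmin, a copper-bearing ferroxidase that is on no list, had 643 at 24 h and 142, below the floor, at 12 h.

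Of 30 measured genes of simple epithelia and their junctions, 4 were at least 2-fold higher at 24 h (against 3.16%), none was 2-fold lower, and the median log2 ratio was 0.34. Ehf, an epithelial transcription factor, had 348 at 24 h and 122, below the floor, at 12 h. Spint1, an inhibitor of surface proteases, had 667 at 24 h and 272 at 12 h. Krt18 and Krt8, the keratin pair of simple epithelia, had log2 ratios of 0.75 and 0.46. Prss8, a surface protease, had 1.13 in its brightest probe set and -0.08 in the second.

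Markers of the tissue's cell types were read beside these lists. The summed signal of the 22 uterine epithelium markers on the array was 37219 at 24 h and 28248 at 12 h. The 20 measured ones had a median log2 ratio of 0.48, which became 0.24 with a floor at the 60th percentile. Among these 20 genes, 2 (Ehf and Prss8) were at least 2-fold higher at 24 h (against 3.16%). Stromal fibroblast markers (24 genes) summed to 101781 at 24 h and 65009 at 12 h with a median of 0.42. Of the 24, Col1a2, Dcn and Pdgfra were at least 2-fold higher at 24 h (against 3.16%) and Gli1 and Ptch1 at least 2-fold lower (against 2.71%). The second probe set had a log2 ratio of -0.01 for Col1a2, 0.24 for Pdgfra and -0.36 for Ptch1, all under 1.5-fold. Smooth muscle markers (17 genes on the array) summed to 92857 at 24 h and 77367 at 12 h. The 14 measured ones had a median of 0.32, and none of them passed 2-fold. Over all measured genes the median was 0.01. The 13 hybridisation control probe sets at or above the floor, which read RNA added to each sample and none from the tissue, had a median log2 ratio of 24 h over 12 h of 0.45 in the deposited signals, and what this carries into the tissue values was not tested. Endothelial, leukocyte and granulocyte markers had medians of 0.08, 0.05 and 0.04, and none of their 17, 21 and 6 measured genes passed 2-fold. Markers of ovary and oviduct (5 measured genes) had a median of 0.60, and those of pancreatic acinar cells (4) one of 0.38. Skeletal muscle (9), adipocyte (10) and blood (3) markers had medians of 0.16, -0.03 and -0.23. No gene of these lists passed 2-fold either. In whole tissue, fewer cells of a type and less RNA per cell cannot be told apart, and the part of the cell makeup in the results was not tested.

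On the other side stood the machinery that makes ribosomes. Of 58 measured ribosome biogenesis genes, 15 were at least 2-fold lower at 24 h (25.9%, against 2.71% of all measured genes), none was 2-fold higher, and 54 had a log2 ratio below 0. The median was -0.73, and over vehicle the list's median was 0.96 at 6 h, 0.68 at 12 h and 0.00 at 24 h. These 3 values share the vehicle array. The last is 0 by construction, since it fell on genes below the floor on both the vehicle and 24 h arrays. The summed signal of the list's 60 genes on the array was 53121 at 24 h and 49569 with vehicle. Nop58, a core protein of the particles that methylate ribosomal RNA, had 265 at 24 h and 916 at 12 h, 3.46-fold lower. Rrs1, an assembly factor of the large subunit, had 409 at 24 h and 1346 at 12 h, and Ddx21, a nucleolar helicase, had 553 at 24 h and 1808 at 12 h. Each was more than 3-fold lower at 24 h and within 1.5-fold of its vehicle signal (216 for Nop58, 431 for Rrs1 and 478 for Ddx21). Gnl3, nucleostemin, had 438 at 24 h and 1226 at 12 h, and Tsr1, which matures the small subunit, had 785 at 24 h and 2224 at 12 h.

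Genes for the proteins of the finished ribosome showed no settled direction. None of 24 measured cytosolic ribosomal protein genes passed 2-fold, and their median log2 ratio was 0.22, which became -0.028 after quantile normalisation, so no direction is given. Translation factors had 5 of 36 measured genes at least 2-fold lower (13.9%, against 2.71% of all measured genes) and a median of -0.35. Eif3j1, a factor that joins the small subunit during initiation, had 956 at 24 h and 2511 at 12 h.

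Supply lines of protein and nucleotide synthesis were lower too. Of 35 measured genes of tRNA charging and amino acid supply, 5 were at least 2-fold lower at 24 h (14.3%, against 2.71%), and the median was -0.52. Atf4, the transcription factor of the amino acid and stress response, had 1441 at 24 h and 3086 at 12 h. Ddit3, a target of Atf4, had 182 at 24 h and 502 at 12 h, and Atf5, a relative of Atf4 that is on no list, had 1256 at 24 h and 4905 at 12 h, 3.91-fold lower. Mthfd2, a mitochondrial folate enzyme, had 924 at 24 h and 2426 at 12 h. Its log2 ratio as the median of its probe sets, -0.70, is smaller by construction, since the other was below the floor at both times. Of 21 measured genes of nucleotide and polyamine synthesis, 4 were at least 2-fold lower (19.0%, against 2.71%) and the median was -0.49. Srm, spermidine synthase, had 744 at 24 h and 2144 at 12 h, 2.88-fold lower, whereas Nme1, a nucleotide kinase, had a log2 ratio of -1.51 in its brightest probe set and 0.50 in the second.

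Protein folding followed the same direction in the cytosol and in the endoplasmic reticulum (ER). Among 42 measured cytosolic and mitochondrial chaperone genes, 6 were at least 2-fold lower at 24 h (14.3%, against 2.71%), and the median was -0.51. Hsph1, a large cytosolic heat shock protein, had 809 at 24 h and 2958 at 12 h, 3.66-fold lower. Hsp90aa1, the stress-induced Hsp90, had 3701 at 24 h and 9122 at 12 h. Its log2 ratio of -1.30 became -0.65 as the median of its probe sets. The other probe set was below the floor at both times, so that smaller value follows by construction. The inducible Hsp70 genes were not lower: Hspa1b read 2528 at 24 h and 2043 at 12 h, and Hspa1a read 1228 at 24 h and 969 at 12 h, each within 1.5-fold. The proteasome, which degrades tagged proteins, had 1 of 36 measured genes at least 2-fold lower (2.78%), near the 2.71% of all measured genes. That gene was its activator Psme3, with 761 at 24 h and 1602 at 12 h, and the list's median was -0.33.

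Of 46 measured genes of ER folding and translocation, 6 were at least 2-fold lower at 24 h (13.0%, against 2.71%), none was 2-fold higher, and the median was -0.31. Creld2, an ER stress protein, had 386 at 24 h and 1337 at 12 h, and Dnajb11, a cochaperone of the ER, had 269 at 24 h and 915 at 12 h. Both were more than 3-fold lower at 24 h. Hspa5, BiP, the main chaperone of the ER, had 2604 with vehicle, 11617 at 6 h, 8581 at 12 h and 3823 at 24 h. Manf, a protein secreted under ER stress, had 1215 at 24 h and 2797 at 12 h. Dnajc3, which restrains a stress kinase of the ER, had a log2 ratio of -1.51 in its brightest probe set and -0.92 in the second. Structural parts of the translocation machinery moved little: Sec61b, a subunit of the translocation channel, had a log2 ratio of -0.13 and Rpn2, of the glycosylation complex, 0.18. Gmppb, which makes the mannose donor for glycosylation and is on no list, had 163 at 24 h and 643 at 12 h, 3.96-fold lower.

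The ER stress response element (ERSE), a composite motif bound by Atf6 with NF-Y, is the classical element of these promoters. Promoters of 300 bases (250 before the first transcribed base and 50 from it, RefSeq, build GRCm38.p6) were on hand for 37 of the 46 genes, and 6 of them (16.2%: Creld2, Dnajc3, Hspa5, Hsp90b1, Pdia6 and Canx) held the element on either strand, against 9 of 4813 measured genes with a promoter (0.187%) and 0.119% of all 32851 promoters. A match describes letters and shows neither binding nor a cause. Of the 6, Hsp90b1 had a log2 ratio of 24 h over 12 h of -0.63 and Pdia6 of -0.53, while Canx had 0.22 in its brightest probe set and -0.84 in the second. The promoters of the other 3, the members with the largest drop among the 6, are shown with the element in capitals. Counted from the first transcribed base at 0, it starts at -126 in Creld2 (chr15:88819396-88819695, plus strand, element on the opposite strand), at -105 in Dnajc3 (chr14:118937682-118937981, plus strand) and at -65 in Hspa5 (chr2:34771840-34772139, plus strand).
Creld2: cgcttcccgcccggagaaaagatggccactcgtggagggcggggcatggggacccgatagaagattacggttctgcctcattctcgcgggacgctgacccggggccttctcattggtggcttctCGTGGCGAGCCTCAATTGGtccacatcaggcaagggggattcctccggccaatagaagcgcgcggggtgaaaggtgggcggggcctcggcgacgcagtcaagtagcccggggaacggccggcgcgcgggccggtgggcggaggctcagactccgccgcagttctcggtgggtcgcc
Dnajc3: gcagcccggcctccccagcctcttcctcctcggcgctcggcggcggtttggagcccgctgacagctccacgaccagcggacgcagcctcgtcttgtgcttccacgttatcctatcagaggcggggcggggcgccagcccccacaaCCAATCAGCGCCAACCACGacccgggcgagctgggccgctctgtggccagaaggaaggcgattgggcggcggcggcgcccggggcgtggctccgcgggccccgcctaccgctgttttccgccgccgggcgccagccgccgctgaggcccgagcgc
Hspa5: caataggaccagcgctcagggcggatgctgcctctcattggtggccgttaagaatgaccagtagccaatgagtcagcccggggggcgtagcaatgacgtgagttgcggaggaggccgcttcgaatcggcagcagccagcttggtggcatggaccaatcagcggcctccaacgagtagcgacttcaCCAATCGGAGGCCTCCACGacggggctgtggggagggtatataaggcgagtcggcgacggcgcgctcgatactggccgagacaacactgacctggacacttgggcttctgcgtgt

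For ribosome biogenesis the motif searched was the E box CACGTG (a palindrome, counted once for both strands), which Myc and its partners bind. Of 50 measured members with a promoter, 12 held it (24.0%), against 12.4% of the 4813 measured genes with a promoter and 7.15% of all promoters. Tsr1 is shown as the member with the largest drop that holds it (chr11:74897830-74898129, plus strand), with the E box in capitals at position 24.
Tsr1: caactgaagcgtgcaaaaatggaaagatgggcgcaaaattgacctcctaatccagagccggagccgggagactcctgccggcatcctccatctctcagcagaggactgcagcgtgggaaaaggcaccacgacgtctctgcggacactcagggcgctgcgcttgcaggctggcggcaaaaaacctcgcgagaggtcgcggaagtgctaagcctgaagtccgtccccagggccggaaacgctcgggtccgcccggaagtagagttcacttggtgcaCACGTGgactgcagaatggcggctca

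One biosynthetic pathway ran the other way. Of 16 measured genes of sterol synthesis, 14 had a log2 ratio above 0 at 24 h over 12 h, and the median was 0.61, although none reached 2-fold in either direction. Over vehicle the median was 0.73 at 6 h, 0.35 at 12 h and 1.09 at 24 h, values that share the vehicle array. Fdps, which makes farnesyl diphosphate, had 431 with vehicle, 2200.2 at 6 h, 1717 at 12 h and 3385 at 24 h, with 0.83 on the log2 scale in its second probe set for 24 h over 12 h. Sqle, squalene epoxidase, had 1635 at 24 h and 1013 at 12 h, and Hmgcs1, which starts the pathway, had 1782 at 24 h and 1108 at 12 h. The exceptions were Sc5d with a log2 ratio of -0.02 and Ggps1 with -0.84 (-0.42 in its second probe set). The sterol regulatory element was searched as TCACNCCAC on either strand. Of 13 measured members with a promoter, 1 held it (7.69%), against 1.60% of the 4813 measured genes with a promoter and 1.24% of all promoters. Glycolysis (20 measured genes, median 0.26) and the respiratory chain (52 measured genes, median 0.09) had no member past 2-fold.

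**Figure D2:**
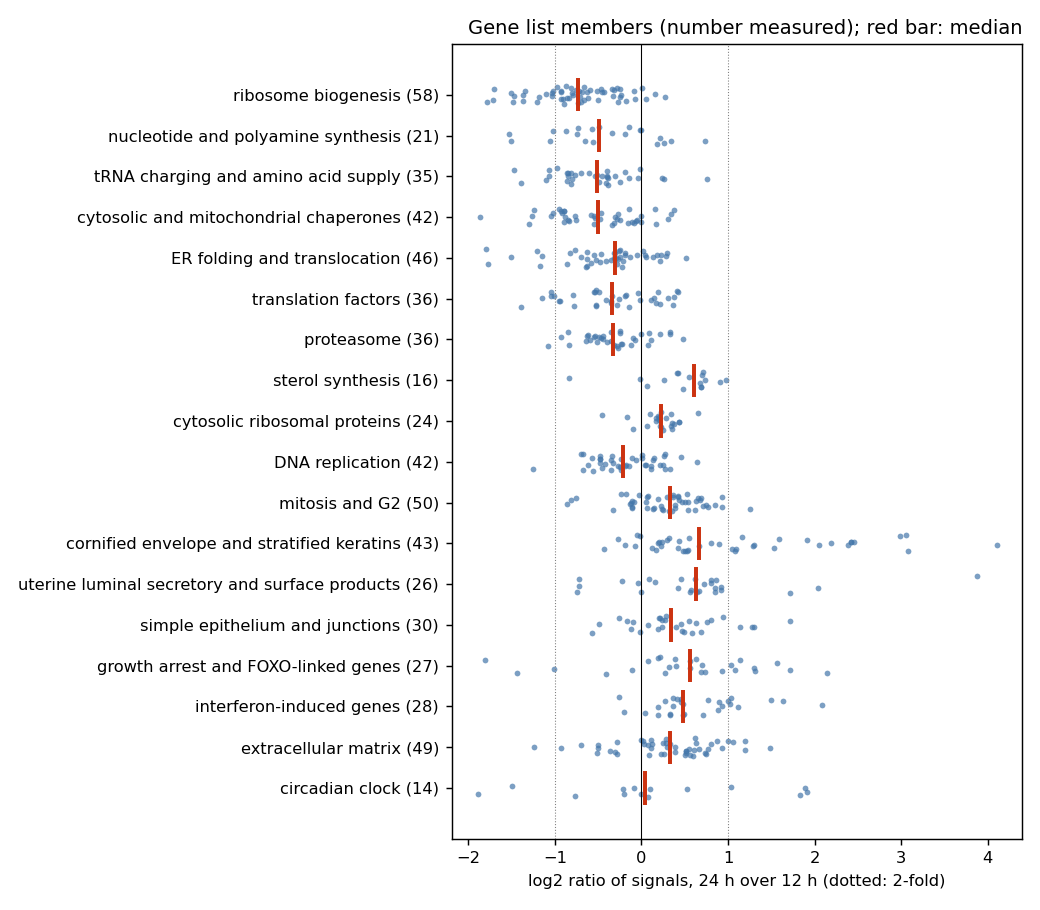
Log2 ratio of 24 h over 12 h for the measured members of 18 gene lists, 1 point per gene, with the list median as a red bar, the number measured in brackets and dotted lines at 2-fold. Biosynthesis lists lie left of 0 except sterol synthesis (median 0.61) and ribosomal proteins (0.22, without a settled direction), and the cornified envelope list reaches furthest right.

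Cell division genes showed a small and uneven shift. Of 50 measured genes of mitosis and G2, 37 had a log2 ratio above 0 and the median was 0.33, yet only Ccnb2 was at least 2-fold higher at 24 h (1 of 50, against 3.16% of all measured genes) and none was 2-fold lower. Over vehicle the list's median was 0.00 at 6 h, 0.76 at 12 h and 1.10 at 24 h, on the same vehicle array. More of its distance from vehicle thus lay before 12 h than after it. The 0.00 at 6 h fell on genes below the floor on both arrays, whose ratio is 0 by construction. Ccnb2, cyclin B2, which drives entry into mitosis, had 944 with vehicle, 659 at 6 h, 1006 at 12 h and 2404 at 24 h. Kif20a, a kinesin of the dividing cell's midzone, had 453 at 24 h and 237 at 12 h, and Kif2c, which frees microtubules at the centromere, had 344 at 24 h and 179.8 at 12 h. Both were 1.91-fold higher. Aurkb, the kinase of the chromosome passenger complex, had 561 at 24 h, 347 at 12 h and 66.3 with vehicle, which is below the floor. The proliferation marker Mki67 read 728 at 24 h and 567 at 12 h, and Top2a, topoisomerase II alpha, read 431 at 24 h and 467 at 12 h. Ttk and Plk4, kinases of the spindle checkpoint and of centriole copying, were lower at 24 h with log2 ratios of -0.82 and -0.86.

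DNA replication genes leaned the other way. Of 42 measured ones, 16 had a log2 ratio above 0, the median was -0.21, and over vehicle the median was 0.25 at 6 h, 0.61 at 12 h and 0.37 at 24 h. Rrm2, the S phase subunit of the enzyme that makes deoxynucleotides, was the member past 2-fold (1 of 42, against 2.71% of all measured genes). It had 279 at 24 h and 667 at 12 h, 2.39-fold lower. Pcna, the clamp of the replication fork, had 1489.6 at 24 h and 2418 at 12 h, and Mcm4, of the replicative helicase, had 622 at 24 h and 991 at 12 h. Mcm7, of the same helicase, was not lower, with 1238 at 24 h and 1034 at 12 h. Among G1 regulators, Ccnd1, cyclin D1, had 967 at 24 h and 2145 at 12 h, with -0.26 in its second probe set against -1.15, and Cdkn1c, the inhibitor p57, had 1027 at 24 h and 374 at 12 h, 2.75-fold higher.

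Late cell cycle promoters carry the CHR element and CCAAT boxes, bound by the DREAM complex or B-Myb and by NF-Y. TTTGAA, the CHR letters, was searched on either strand. Of 40 measured mitosis genes with a promoter, 28 held it (70.0%), against 14.7% of the 4813 measured genes with a promoter and 17.9% of all 32851 promoters. Among the 28, the log2 ratio of 24 h over 12 h ran from -0.82 in Ttk to 1.26 in Ccnb2. Whether a motif goes with the change was not tested. CCAAT on either strand was held by 31 of the 40 genes (77.5%), against 42.2% and 37.4%. On the replication list 6 of 38 measured genes with a promoter held TTTGGCGC, an E2F site (15.8%), against 1.21% and 0.514%. The promoters of Ccnb2 (chr9:70421505-70421804, minus strand) and Mki67 (chr7:135716330-135716629, minus strand) are shown as those of the member past 2-fold and of the common marker, with both motifs in capitals. In Ccnb2 TTTGAA starts at -167 and 4, and CCAAT at -87, -54 and -21. In Mki67 TTTGAA starts at -116 and -98, and CCAAT at -188, -166 (opposite strand) and -141. The ERSE includes a CCAAT box, so those searches overlap.
Ccnb2: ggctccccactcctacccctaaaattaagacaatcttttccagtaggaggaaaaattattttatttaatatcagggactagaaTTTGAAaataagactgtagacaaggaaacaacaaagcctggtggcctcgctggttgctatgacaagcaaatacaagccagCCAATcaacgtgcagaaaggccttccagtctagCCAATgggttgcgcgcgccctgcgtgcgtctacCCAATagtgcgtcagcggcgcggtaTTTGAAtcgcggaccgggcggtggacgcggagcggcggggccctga
Mki67: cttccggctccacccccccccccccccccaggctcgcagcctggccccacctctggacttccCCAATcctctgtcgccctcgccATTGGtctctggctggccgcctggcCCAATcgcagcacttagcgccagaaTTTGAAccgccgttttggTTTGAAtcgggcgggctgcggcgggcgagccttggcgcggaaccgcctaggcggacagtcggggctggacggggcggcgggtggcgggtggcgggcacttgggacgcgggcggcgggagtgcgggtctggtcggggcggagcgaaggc

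**Figure D3:**
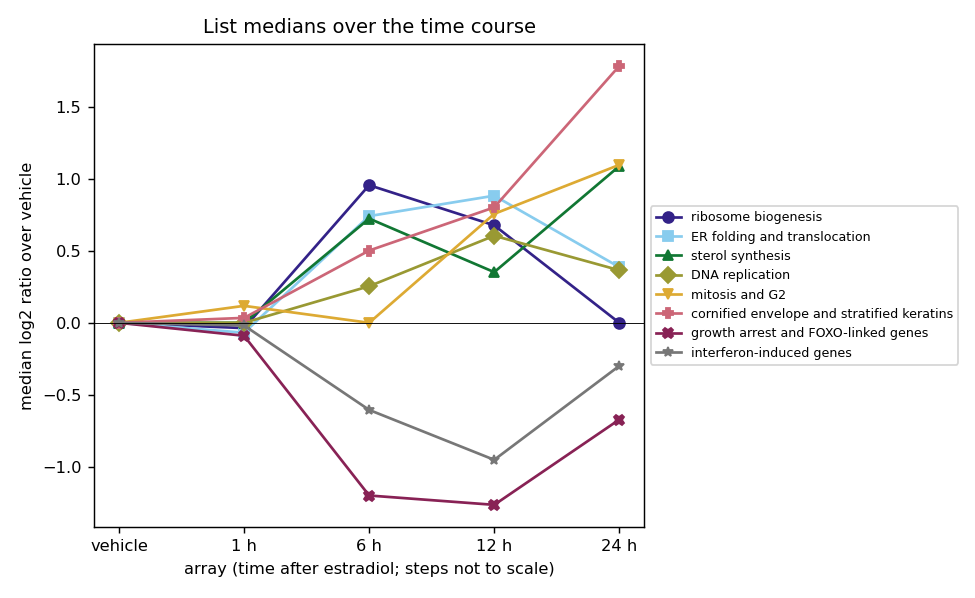
Median log2 ratio over the vehicle array of 8 gene lists on the vehicle, 1 h, 6 h, 12 h and 24 h arrays, 1 array per time, all set against the same vehicle array. Ribosome biogenesis is at 0.00 at 24 h, the cornified envelope list reaches 1.79, and the growth arrest list is at -1.27 at 12 h and -0.67 at 24 h. A median of exactly 0 falls on genes below the floor on both arrays, whose ratio is 0 by construction.

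Genes that were low at 6 h came part of the way back to vehicle. On the 6 h array, 548 genes were at least 2-fold below vehicle (9.1% of 6021 genes measured on that pair of arrays), and 527 of them were measured at 24 h or 12 h. Of these, 86 were at least 2-fold higher at 24 h than at 12 h (against 3.16% of all measured genes). Another 2 (Asb6 and Nacc2, whose second probe set had a log2 ratio of 0.62) were at least 2-fold lower (0.38%, against 2.71%). A log2 ratio above 0 was seen for 461 of the set, and the median was 0.56. The 6 h and vehicle arrays that mark the set are not in this ratio. Set against vehicle, the median was -1.31 at 6 h, -1.08 at 12 h and -0.57 at 24 h, and the number within 1.5-fold of vehicle was 259 at 24 h and 74 at 12 h. These values share the vehicle array, and 106 of the 527 were still at least 2-fold below it at 24 h, against 299 at 12 h. Of all 5987 measured genes, 210 were that far below vehicle at 24 h and 433 at 12 h, counts that include genes of this set. The share of all measured genes within 1.5-fold of vehicle was not counted.

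Genes that were high at 6 h moved the other way. Of 416 genes at least 2-fold above vehicle at 6 h (6.91%), 415 were measured, 103 were at least 2-fold lower at 24 h than at 12 h (against 2.71% of all measured genes), and the median was -0.69. Only 6 (1.45%, against 3.16% of all measured genes) went on to be 2-fold higher at 24 h. These were Krt17, Krt13, Krt6b, Sprr1a, Fabp5 and Gjb2, all on the epithelial lists described above. Over vehicle the median was 1.34 at 6 h, 1.20 at 12 h and 0.44 at 24 h, and 239 were within 1.5-fold of vehicle at 24 h, against 48 at 12 h. Still at least 2-fold above vehicle at 24 h were 75 of the 415, against 224 of all 5987 measured genes. Inhbb, the beta B subunit of activin and inhibin, was the gene with the largest drop: it read 141 with vehicle, 3619.8 at 6 h, 1954 at 12 h and 328 at 24 h, 5.96-fold lower at 24 h than at 12 h. Ifrd1 had 142, just below the floor, at 24 h and 789 at 12 h, at least 5.5-fold lower, and Abcf2, of the ABC protein family, had 159 at 24 h and 718 at 12 h. Gadd45g, a stress sensor and early estrogen-responsive gene, read 409 with vehicle, 8248 at 6 h, 2401 at 12 h and 687 at 24 h. Of 40 measured known estrogen targets of the uterus, 8 were at least 2-fold lower at 24 h (20.0%, against 2.71%). Another 2 were at least 2-fold higher (5%, against 3.16%), and the list's median was -0.29. Pgr, the progesterone receptor, was one of the 8 lower ones, with 282 at 24 h and 605 at 12 h.

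**Figure D4:**
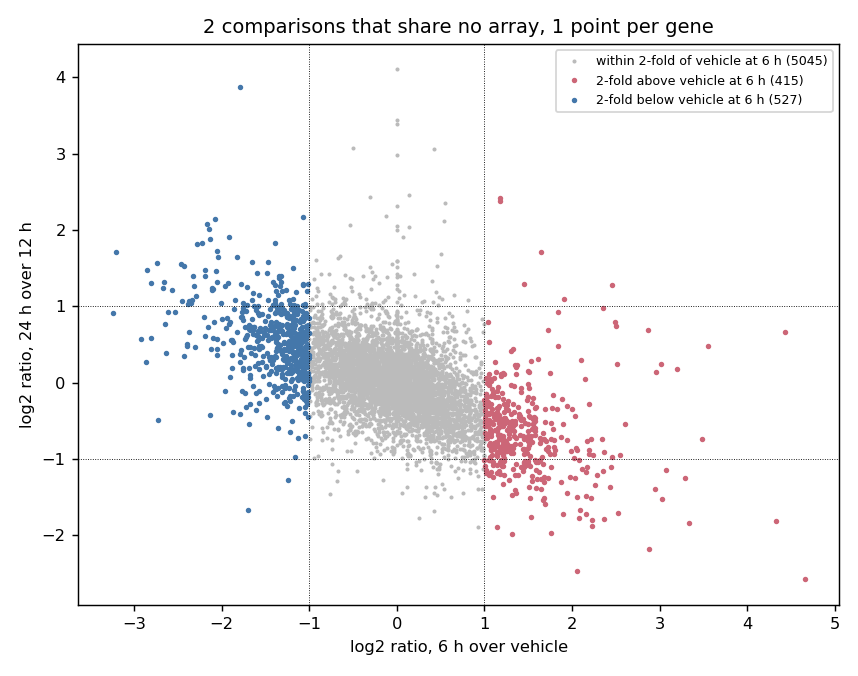
Log2 ratio of 24 h over 12 h (vertical) against that of 6 h over vehicle (horizontal) for 5987 measured genes, 1 point per gene, from 2 pairs of arrays with no array in common, and dotted lines at 2-fold. Genes below vehicle at 6 h (blue, 527) lie mostly above 0 and genes above vehicle at 6 h (red, 415) mostly below it, with medians of 0.56 and -0.69.

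Genes that restrain growth were among those higher at 24 h. Of 27 measured genes linked to growth arrest and to FOXO transcription factors, 8 were at least 2-fold higher at 24 h (against 3.16%). Another 3 were at least 2-fold lower (against 2.71%). The list's median was 0.57 for 24 h over 12 h, and -1.20, -1.27 and -0.67 over vehicle at 6 h, 12 h and 24 h. Ccng2, cyclin G2, an inhibitor of the cycle, had 1325 with vehicle, 90.0 at 6 h, 194 at 12 h and 636 at 24 h. Ctsf, cathepsin F, a lysosomal protease, had 632 at 24 h and 93.4, below the floor, at 12 h, at least 4.41-fold higher. Ypel3, a senescence-linked gene, had 2590.3 at 24 h and 877 at 12 h, and Mxi1, an antagonist of Myc, had 597 at 24 h and 240.0 at 12 h. All 4 remained below their vehicle signals at 24 h. The 3 lower members were Gadd45g, Ccng1 (350.3 at 24 h and 950.3 at 12 h) and Gas6 (2547 at 24 h and 5134 at 12 h), none of which was below vehicle at 6 h. Txnip, an inhibitor of thioredoxin, had a log2 ratio of 1.14 in its brightest probe set and -0.25 in the second.

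Interferon-induced genes, which carry antiviral defence, were also higher at 24 h. Of 28 measured ones, 7 were at least 2-fold higher at 24 h (against 3.16%), none was 2-fold lower, 26 had a log2 ratio above 0, and the median was 0.48. Over vehicle the median was -0.61 at 6 h, -0.95 at 12 h and -0.30 at 24 h. Gbp3, a guanylate-binding protein that attacks intracellular pathogens, had 1078 at 24 h and 255 at 12 h, 4.23-fold higher, and Gbp7, of the same family but not on the list, had 829 at 24 h and 205 at 12 h. Iigp1, an immunity GTPase, had 511 at 24 h and 164 at 12 h. Its log2 ratio as the median of its probe sets, 0.82, is smaller by construction, since the other was below the floor at both times. Isg15, a ubiquitin-like protein, had 787 at 24 h and 386 at 12 h. Gbp3 was above its vehicle signal at 24 h, 877, and Gbp7 below it, 1119. MHC class II genes stood apart from them: 10 measured genes of antigen presentation by MHC class II had a median log2 ratio of 0.05 for 24 h over 12 h and were still at -0.71 over vehicle at 24 h, with -1.07 at 12 h.

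Matrix and growth factor genes moved in part. Of 49 measured extracellular matrix genes, 4 passed 2-fold toward 24 h (against 3.16%) and 1 passed it toward 12 h (against 2.71%). The median was 0.33. Tnxb, tenascin X, had 609 at 24 h and 218 at 12 h, and its second probe set had the same log2 ratio to 1 decimal, 1.47 against 1.48. Dcn, decorin, a proteoglycan of collagen fibres, had 24097 with vehicle, 9247 at 6 h, 5989.9 at 12 h and 13717 at 24 h. Fbln2, fibulin 2, was the member that was lower, with 1129.9 at 24 h and 2671 at 12 h. Igfbp3, which binds insulin-like growth factors, had 1123 at 24 h and 357 at 12 h, still below its vehicle signal of 7027, while Igf1 itself had a log2 ratio of -0.02 in its brightest probe set and -2.25 in another, so no direction is given. Sfrp2, a secreted Wnt antagonist, had 1683 at 24 h, 604 at 12 h and 5347 with vehicle.

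Genes of the circadian clock differed in both directions. Of 14 measured ones, 4 passed 2-fold toward 24 h and 2 passed it toward 12 h, against 3.16% and 2.71%, and the list's median was 0.04. Dbp, an output factor of the clock, had 529 at 24 h and 23.0, below the floor, at 12 h, at least 3.69-fold higher. Tef, its relative, had 1624 at 24 h and 457 at 12 h, Nr1d2, a repressor of Arntl, had 924 at 24 h and 246 at 12 h, and Nr1d1, its close relative, had 605 at 24 h and 296 at 12 h. These 4 were within 2-fold of their vehicle signals at 24 h (628 for Dbp, 1344 for Tef, 1496 for Nr1d2 and 757 for Nr1d1). Arntl (Bmal1), which drives the loop, had 203 at 24 h and 571 at 12 h, 2.81-fold lower, and Cry1, a repressor, had 248 at 24 h and 919.6 at 12 h. Cry1 rests on 1 of its 3 probe sets, since the others were below the floor at both times. By construction the median log2 ratio of its probe sets was therefore 0.00. At 24 h, 3 of the 14 were at least 2-fold below vehicle, against 210 of all 5987 measured genes. They were Cry1 (vehicle signal 619), Arntl (469) and Csnk1e, a kinase of clock proteins. Csnk1e had 556 at 24 h, 519.6 at 12 h and 1127 with vehicle. Per1 read 283 at 24 h and 283 at 12 h, the same to 3 digits. Lights were on for 12 h a day, per the labels, so a 12 h step can join opposite phases of the day, and its part in the other results was not tested.

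**Figure D5:**
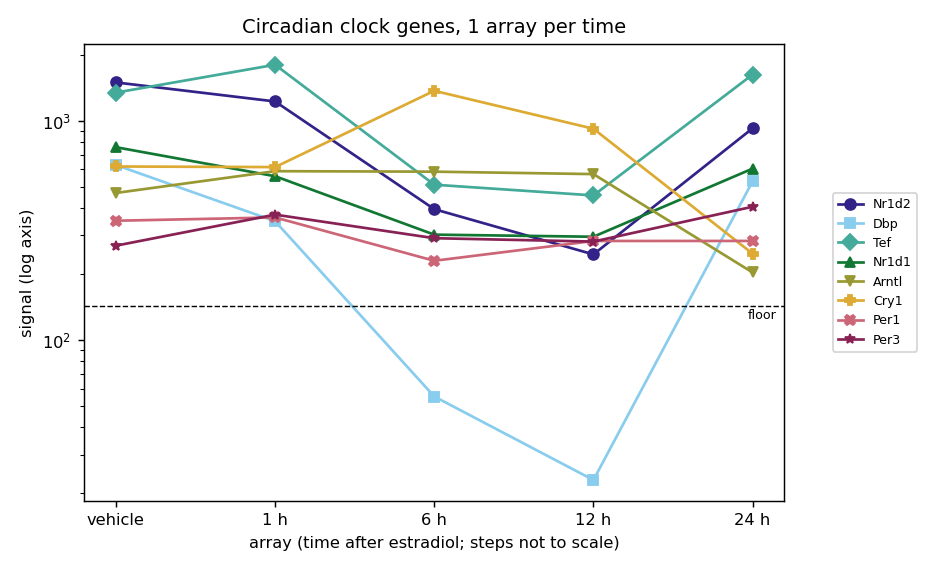
Signal (log axis) of 8 clock genes on the vehicle, 1 h, 6 h, 12 h and 24 h arrays, 1 array per time, with the floor as a dashed line. Nr1d2, Dbp, Tef and Nr1d1 dip at 6 h and 12 h and are higher again at 24 h, while Cry1 and Arntl are lowest at 24 h. Heights of different genes are not comparable, since each has its own probes.

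Genes often used as references did not pass 2-fold. Their 13 members had a median log2 ratio of 0.04 for 24 h over 12 h, with a range of -0.33 to 0.76. Esr1, the receptor for the injected hormone, read 573 at 24 h and 459 at 12 h, and lactoferrin (Ltf), an iron-binding protein of uterine fluid, read 2087 at 24 h and 1419 at 12 h.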

How the data were processed

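Pooled RNA of whole uteri was hybridised to Affymetrix U74Av2 arrays, with 1 array in each of 6 groups. Per the submitters' processing notes the deposited signal intensity values are the output of MAS5, on a linear scale, whose version, background settings and masks are not given in the sources used here. The values as deposited by the authors had a mean of 500.2 to 500.3 on every array after removing 2% at each end. Precision is limited by the number of arrays.

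Of 12488 probe sets, 66 control probe sets were left out. In GEO's platform annotation 10833 of the rest had a single gene symbol and were named, while 396 had several and 1193 had none. A RefSeq table (GRCm38.p6) gave current symbols for 10817 of the named ones by gene identifier. Arrays were rescaled to a 2% trimmed mean of 500 without the controls. The floor was the 40th percentile of all scaled values (143), applied before log2, and each gene was read by its brightest probe set, out of several for 2073 genes. A gene counted as measured when at or above this floor at 24 h or 12 h. Genes were counted at 2-fold. With 1 array per group no test, SD or p-value was computed. The computation of ratios was run on simulated arrays with known log2 ratios. That checked the median ratio returned, not how reliable the counts at 2-fold are. Python 3.11.15, numpy 2.4.6 and pandas 2.3.3 were used.

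The 42 gene lists (1513 symbols), the sets of genes and the rule below were chosen with earlier results of these data known, and lists overlap. The rule named genes whose brighter array of the pair reached the 60th percentile of all values (354): the 15 highest and 15 lowest ratios, up to 5 per list on biosynthesis, proliferation, epithelium and repressed genes and up to 3 per other list, the 10 highest of the set below vehicle at 6 h and the 10 lowest of the set above it, and a few fixed genes without that limit, of which C3 and Ccnb1 had no probe set with 1 symbol. Any other list member named was chosen after its values were seen. Motifs were counted in all promoters of 300 bases that the RefSeq table held. A gene counted as holding a motif when any of its promoters did, whereas a share of all promoters counts each promoter. The 3 h array was used for the common floor and the choice of probe set only. Alternatives covered the floor, scaling, pseudocount, choice of probe set, the 3 h array and the way the 6 h sets were marked.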

Additional observations from a re-analysis of the deposited data

How the results depend on the processing

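The counts at 2-fold moved most with the floor: 395 genes higher and 296 lower at 24 h than at 12 h with the floor at the 20th percentile, and 94 and 91 with it at the 60th, where by construction dim genes cannot reach 2-fold. Scaling each array to the same median turned the majority, with 158 higher and 184 lower. Quantile normalisation gave 173 and 165, the median over a gene's probe sets 154 and 126, and leaving out the 3 h array 188 and 159. The 9 alternatives and 2 added after seeing the data include 3 that bear on the 6 h sets only. Under the others, the list medians that moved by more than 0.2 on the log2 scale were uterine epithelium markers, 0.24 with the floor at the 60th percentile against 0.48, granulocyte markers, 0.40 with the floor at the 20th against 0.04, and cytosolic ribosomal proteins, which changed sign to -0.028 after quantile normalisation; the cause was not tested. Of 39 list medians, 8 more took both signs, all of them between -0.03 and 0.05 as reported: G1 cyclins, IGF axis, MHC class II, TGF-beta, circadian clock, reference genes, granulocyte and adipocyte markers. Genes above vehicle at 6 h had a median of -0.92 where 3-fold marked the set, which by construction holds genes further from vehicle. With the 1 h array as the baseline that marks the sets, the medians were 0.56 for genes below it at 6 h and -0.68 for genes above it. Of 98 named genes past 2-fold, 29 fell under it with the floor at the 60th percentile, 17 with the median of probe sets, 7 with log2 of signal plus 32 in place of a floor, 3 with median scaling, 1 with quantile normalisation and 1 without the 3 h array. In a median of probe sets, those below the floor at both times count as unchanged by construction. No paired analysis was possible because each group has 1 array.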

Other observations

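Lists for the 3 gene families in this paragraph were written after their values were seen, so their counts are descriptions. Hedgehog signalling, by which uterine epithelium speaks to stroma, had 3 of 8 measured genes at least 2-fold lower at 24 h (against 2.71% of all measured genes). Its median log2 ratio of 24 h over 12 h was -0.53 over the brightest probe sets. Gli1, its transcription factor and target, read 424 at 24 h and 1111 at 12 h, and Ptch1, the receptor and another target, read 472 at 24 h and 1156 at 12 h, with -0.36 in its second probe set against -1.29. The ligand Ihh read 179 at 24 h and 296 at 12 h, and Gli2 read 185 at 24 h and 412 at 12 h, whereas Smo, Dhh and Gli3 had log2 ratios between -0.08 and -0.03, and the second probe set of Dhh had 0.26. Glutathione transferases, which conjugate reactive compounds, counted 12 measured genes, with a median log2 ratio of 0.81. A 2-fold step toward 24 h was reached by 5 of them (against 3.16% of all measured genes), and toward 12 h by none. Gstk1 read 494 at 24 h and 166 at 12 h, and Gsto1 read 8380.4 at 24 h and 3577 at 12 h, while Gstm1 had 0.88 in its brightest probe set and -0.90 in the second. Among 6 measured connexins, Gjb6 (connexin 30) read 575 at 24 h and 84.1, below the floor, at 12 h, beside the higher Gjb2, while Gja1 (connexin 43) read 3440.2 at 24 h and 4386 at 12 h.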
